A study of Mus musculus with 8 samples.

Results

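The genes described here are 47 genes of DNA replication and the cell cycle, chosen by name for their known function. They were 47 of 19751 genes named on the array. Of them, 46 were tested, among 13653 genes tested in all, because all arrays of 1 group or of both showed them well above background. Expression was measured in VV3 ESCs, a male mouse embryonic stem cell line that carries a Vasa::Venus transgene, a fluorescent reporter of the germ cell gene *Vasa* (*Ddx4*), and that grows on STO fibroblasts inactivated with mitomycin C. *L3mbtl2*-KD samples (n = 4) received 1 siRNA against *L3mbtl2*, and control samples (n = 4) received the non-silencing AllStars siRNA. The methods state that Vasa-positive cells were purified by FACS before RNA was isolated. Where they describe the comparison, they name Vasa-positive cells for the *L3mbtl2* siRNA only, and no sort for the control. A sort for the reporter selects *L3mbtl2*-KD cells that express *Vasa*, so the samples are not an unselected knockdown population. One-colour Agilent arrays were used, 1 for each sample, and 59.5 to 66.6% of their spots were well above background.

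Levels are log2 intensities relative to the 75th percentile of the same array, so a level of 0 is that percentile. Levels of different genes are set together only to name the brightest probe of a marker list, to sum such a list and to set the bound for *Dcn*. None of these measures abundance. A log2 fold change is the *L3mbtl2*-KD mean minus the control mean, and an adjusted p is that of limma after Benjamini-Hochberg adjustment across the tested probes.

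Before S phase, the origin recognition complex with CDC6 and CDT1 loads the MCM helicase onto DNA, and CDK and CDC7 kinases later activate it with CDC45 and the GINS complex. PCNA, the clamp that replication factor C loads onto DNA, then holds the polymerases on the template. Cyclin B with CDK1 drives entry into mitosis, in which anaphase starts after CDC20 activates the anaphase-promoting complex. Many of these genes are known targets of E2F factors, and others are known to be controlled through a cell cycle genes homology region (CHR). L3MBTL2 belongs to the PCGF6-PRC1 complex, which also holds E2F6, MAX and MGA. Mouse ESCs cycle fast and spend little of the cycle in G1.

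Promoter windows of RefSeq (GRCm38.p6), from 250 bases before to 50 bases after the start of a gene, were matched for 37 of the 47 members. No window was matched for *Aurkb*, *Ccna2*, *Ccne2*, *Gins1*, *Gins2*, *Gins4*, *Gmnn*, *Mcm4*, *Pole* and *Rfc2*. An E2F motif (TTTCCCGC, TTTCGCGC, TTTGCCGC or TTTGGCGC, on either strand) was found for 13 of the 37 members (35.1%) and for 2.6% of all 27025 genes with a window. These 27025 genes are a wider set than the genes tested here and include genes that were not tested. A CHR motif (TTTGAA or TTTAAA, on either strand) was found for 16 members (43.2%) and for 30.6% of the 27025 genes. The E-box CACGTG was found for 2 members (5.41%) and for 8.09% of the 27025 genes. A match is a run of letters and does not show that a factor binds there. The windows of the 4 members that passed the test are shown with motif matches in capitals, on the strand of the gene, from 250 bases before to 30 bases after its start.
Orc1 (chr4:108579204-108579483, plus strand): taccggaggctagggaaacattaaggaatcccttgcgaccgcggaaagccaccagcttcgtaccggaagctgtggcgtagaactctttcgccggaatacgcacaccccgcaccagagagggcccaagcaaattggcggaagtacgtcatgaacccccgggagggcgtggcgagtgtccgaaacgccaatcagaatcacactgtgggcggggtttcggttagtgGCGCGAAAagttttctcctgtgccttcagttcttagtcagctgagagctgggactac
Cdc20 (chr4:118437314-118437593, minus strand): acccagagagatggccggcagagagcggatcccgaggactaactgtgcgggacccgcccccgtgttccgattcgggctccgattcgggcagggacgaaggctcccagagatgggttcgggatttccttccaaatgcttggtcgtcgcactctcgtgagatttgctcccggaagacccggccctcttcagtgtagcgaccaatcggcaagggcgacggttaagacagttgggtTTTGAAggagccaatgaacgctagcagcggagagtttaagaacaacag
Mcm3 (chr1:20820283-20820562, minus strand): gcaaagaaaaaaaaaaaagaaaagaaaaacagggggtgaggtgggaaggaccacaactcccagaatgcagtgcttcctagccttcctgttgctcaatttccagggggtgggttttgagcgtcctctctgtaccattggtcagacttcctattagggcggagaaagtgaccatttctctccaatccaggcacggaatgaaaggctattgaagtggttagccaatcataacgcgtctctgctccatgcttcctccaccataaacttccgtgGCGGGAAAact
Cdk2 (chr10:128705022-128705301, minus strand): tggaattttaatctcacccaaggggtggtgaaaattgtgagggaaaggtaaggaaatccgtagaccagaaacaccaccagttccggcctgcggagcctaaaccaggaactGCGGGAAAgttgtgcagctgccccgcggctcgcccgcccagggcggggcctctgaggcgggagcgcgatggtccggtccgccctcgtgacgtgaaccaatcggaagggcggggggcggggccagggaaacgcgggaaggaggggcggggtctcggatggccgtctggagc
The capitals mark an E2F motif in *Orc1*, *Mcm3* and *Cdk2* and a CHR motif in *Cdc20*, and a further E2F match of *Mcm3* lies past the stretch shown. Of the 4 genes, those with an E2F motif include 1 with a higher and 2 with a lower level in *L3mbtl2*-KD samples. Among tested members with a window, the median log2 fold change was -0.076 for the 13 with an E2F motif and 0.058 for the 24 without, while for the CHR motif it was 0.064 for the 16 with it and -0.076 for the 21 without.

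*L3mbtl2*, the target of the siRNA, had levels of -1.45, -1.26, -1.58 and -1.73 in *L3mbtl2*-KD replicates 1 to 4 and of 0.27, -0.18, -0.21 and -0.31 in control replicates 1 to 4. All *L3mbtl2*-KD samples lay below all control samples. The siRNA target fell, with a log2 fold change of -1.40, a standard error of 0.15 and an adjusted p of 0.000945 in limma. A two-sided exact permutation test gave p = 0.0286, the smallest that 4 against 4 samples allow. Within slide 1, which held replicates 1 and 2, the log2 fold change was -1.40 (adjusted p = 0.0982), and within slide 2 it was -1.40 (adjusted p = 0.00874).

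*Orc1* and *Cdc20* rose and *Mcm3* and *Cdk2* fell in *L3mbtl2*-KD ESCs, with and without the replicate number as a block, and the largest of these changes was 1.39-fold. Without the block, 2 of 46 members (4.35%) were higher and 2 of 46 (4.35%) lower at an adjusted p under 0.05 in limma, against 9.35% and 10.8% of all genes tested. No member was up-regulated or down-regulated more than 2-fold in any probe, against 2.49% and 3.21% of all genes, and no probe of a member, whatever its p, was past 1.39-fold. At an unadjusted p under 0.05, 5 members were higher (10.9%) and 7 lower (15.2%), against 16.9% and 18.8% of all genes. The groups did not overlap for 5 members with higher levels (10.9%) and 6 with lower levels (13%), against 12.6% and 13.8% of all genes.

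Same-numbered samples of the groups deviated together, and with the replicate number as a block the counts were 8 members higher (17.4%) and 7 lower (15.2%), against 22.2% and 23.8% of all genes. The pairing behind this block was read from these same values, and the labels do not state it. Besides the 4 genes above, the blocked fit called *Gins4*, *Pcna*, *Plk1*, *Rfc2*, *Rfc5* and the probe used for *Cdk1* higher and *Cdt1*, *Gins1*, *Mki67*, *Rrm2* and *Tyms* lower. Of the 46 members, 15 were higher in all 4 same-numbered pairs (32.6%) and 14 lower in all 4 (30.4%), against 31.1% and 32.7% of all genes. Which members pass therefore depends on whether the pairing is used, and in these 2 fits the share of members called was below that of all genes. With the slide as a block, which added *Plk1*, *Rfc2* and *Gins1*, 4 members were higher (8.7%) and 3 lower (6.52%), against 12.9% and 14% of all genes. An intensity trend added *Plk1* and *Rfc2* as higher and *Gins1*, *Mki67* and *Rrm2* as lower, for 4 (8.7%) and 5 (10.9%), against 10.5% and 11.5% of all genes. The split of 2 higher and 2 lower became 2 and 5 with normexp background correction (4.35% and 10.9% of members, 9.84% and 9.44% of all genes), which added *Gins1*, *Mki67* and *Rrm2*, and where the share of lower members was above that of all genes. With quantile normalization it became 3 and 4 (6.52% and 8.7% of members, 10.4% and 9.42% of all genes), which added *Plk1*, *Gins1* and *Rrm2*. With no filter on dim probes *Orc1* was the 1 member called, against 3.75% of all genes higher and 4.83% lower. Within slide 1 (2 against 2) none of the 13653 genes tested passed in limma, while 2089 genes, 2 of them members, had an unadjusted p under 0.05. Within slide 2 *Orc1* was the 1 member that passed, against 4.94% of all genes higher and 6.14% lower.

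The intervals limit how large a change could have gone unseen. On the probe used for each gene, the 95% confidence interval of the log2 fold change lay within 2-fold in either direction for all 46 tested members and within 1.5-fold for 41 (89.1%), against 83.6% and 57.2% of all genes tested. A second, dimmer probe of *Pole* had an interval of -1.04 to 0.15, beyond 2-fold. The median log2 fold change of the members was 0.032, beside -0.011 over all genes, and was 0.0013 within slide 1 and 0.035 within slide 2. With quantile normalization it was -5.3e-05, so its sign is not settled. The median absolute log2 fold change was 0.13 for the members and 0.21 for all genes, with median standard errors of 0.10 and 0.13.

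**Figure D1:**
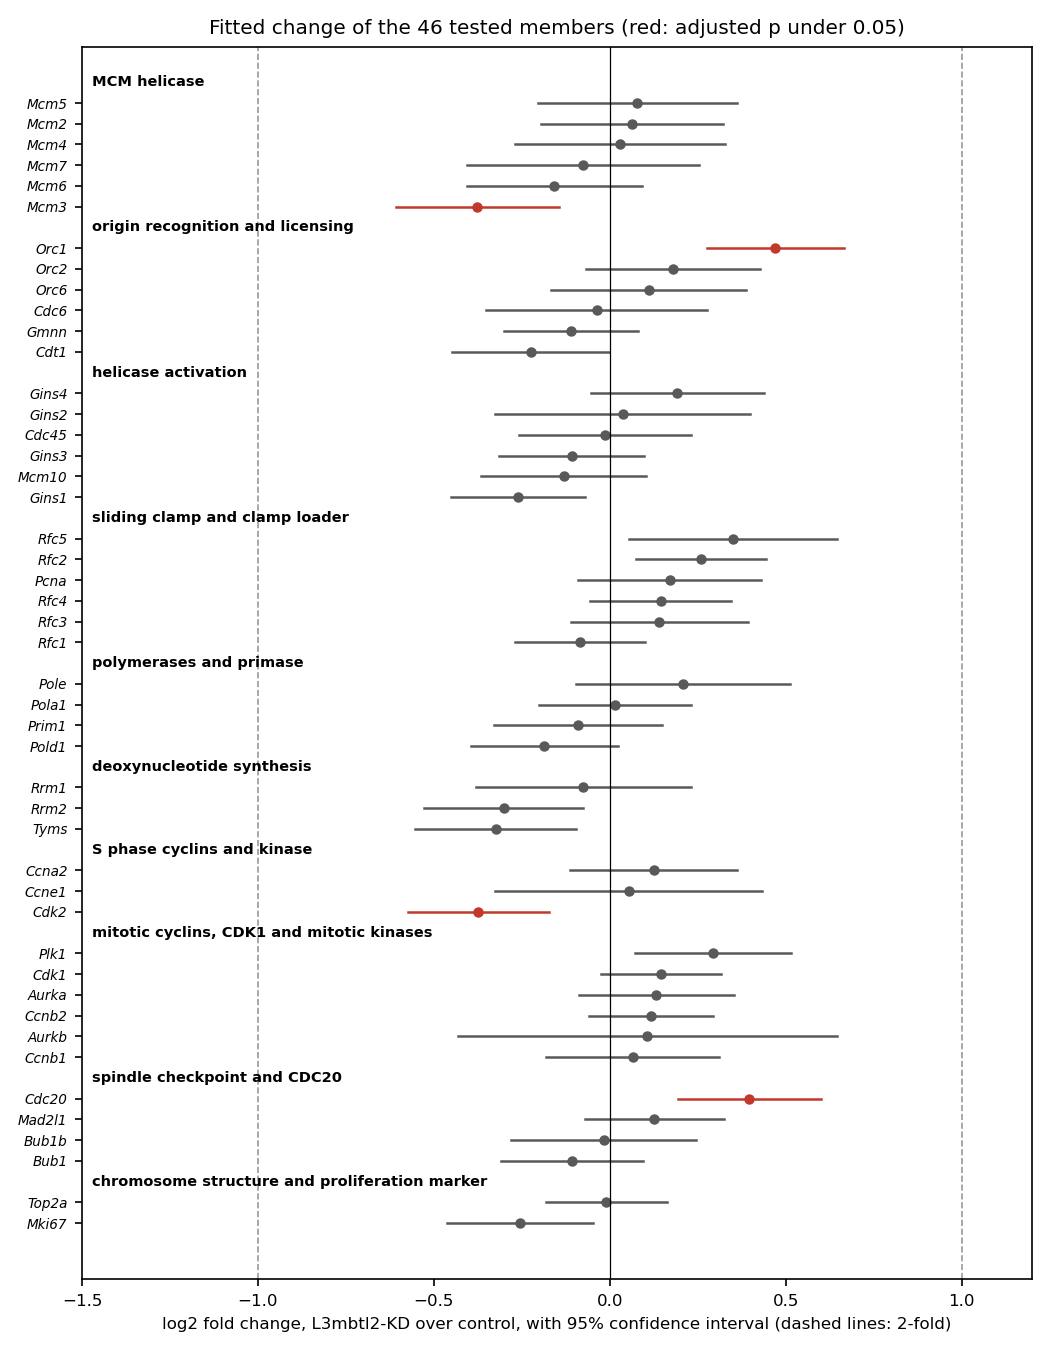
Log2 fold change of each of the 46 tested members (x axis, *L3mbtl2*-KD over control, points) with its 95% confidence interval (lines) on the probe used for the gene, grouped by role, with dashed lines at 2-fold and genes with an adjusted p under 0.05 in red. All 46 intervals lie inside the dashed lines, and *Orc1*, *Cdc20*, *Mcm3* and *Cdk2* are the red genes.

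Among the 6 subunits of the MCM helicase, *Mcm3* fell. Its levels were 4.91, 4.79, 4.88 and 5.01 in *L3mbtl2*-KD replicates 1 to 4 and 5.46, 5.07, 5.24 and 5.32 in control replicates 1 to 4. Every *L3mbtl2*-KD sample lay below every control sample. The log2 fold change was -0.38 (95% confidence interval -0.61 to -0.15, adjusted p = 0.0351 from limma), a level 1.3-fold lower, and was -0.42 within slide 1 (adjusted p = 0.406) and -0.34 within slide 2 (adjusted p = 0.108). With no filter on dim probes its adjusted p was 0.0868, and with the legends' one-way test after Benjamini-Hochberg adjustment 0.0658. The call was lost when any sample but control replicate 2 was left out, with adjusted p of 0.0642, 0.0791 and 0.0831 without control replicates 1, 3 and 4, and of 0.0681, 0.0761, 0.0863 and 0.0513 without *L3mbtl2*-KD replicates 1 to 4. The other subunits of the ring had log2 fold changes from -0.16 for *Mcm6* to 0.078 for *Mcm5*, none passed the test, and their groups overlapped. The sign of *Mcm4* (0.028) turned with normexp background correction and with quantile normalization.

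Of the 6 genes of origin recognition and licensing, *Orc1*, the subunit of the origin recognition complex whose level is known to vary through the cycle, rose. It had levels of -0.06, -0.052, 0.059 and 0.16 in *L3mbtl2*-KD replicates 1 to 4 and of -0.55, -0.42, -0.40 and -0.40 in control replicates 1 to 4. Its groups were separate, and control replicate 1 was the lowest sample. The log2 fold change was 0.47 (95% confidence interval 0.28 to 0.66, adjusted p = 0.00778 from limma), or 1.39-fold, the largest among the members. It was 0.43 within slide 1 (adjusted p = 0.28) and 0.51 within slide 2 (adjusted p = 0.0476), and in leave-one-out fits its adjusted p stayed under 0.05 for each of the 8 samples. The complex's subunits *Orc2* (0.18) and *Orc6* (0.11), the loading factors *Cdc6* (-0.038) and *Cdt1* (-0.22), and *Gmnn* (-0.11), which encodes the CDT1 inhibitor geminin, did not pass in limma as first fitted (log2 fold changes in parentheses). *Cdt1* had an adjusted p of 0.146 there and passed as lower with the replicate block (adjusted p = 0.047). A second probe of *Cdc6* had a log2 fold change of 0.34 (adjusted p = 0.145, 0.0207 with the replicate block), of opposite sign.

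**Figure D2:**
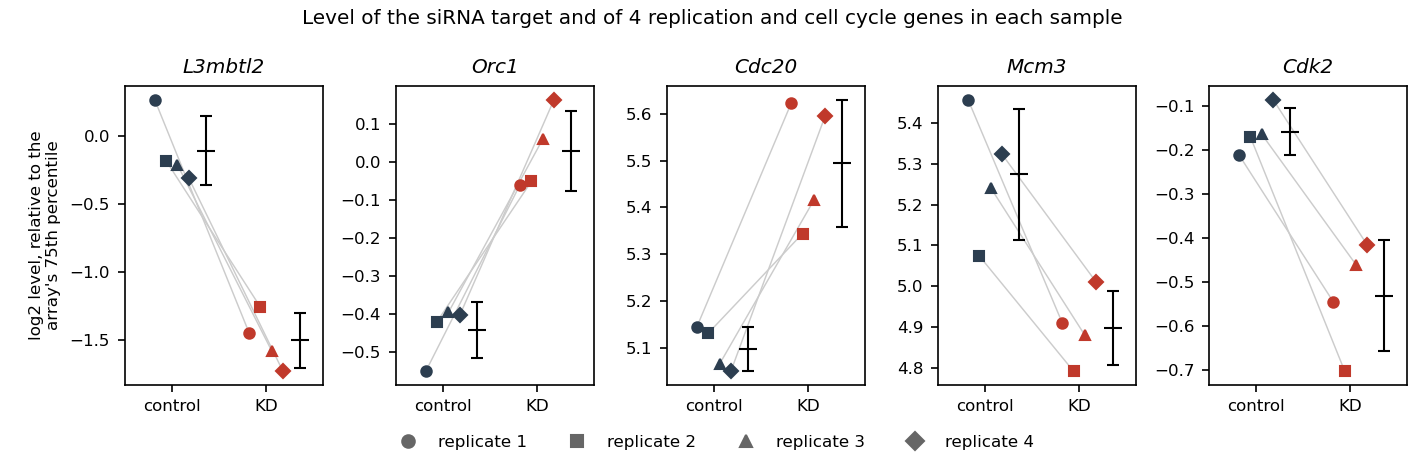
Level of *L3mbtl2*, *Orc1*, *Cdc20*, *Mcm3* and *Cdk2* in each sample (y axis, log2 relative to the 75th percentile of the array, with its own range in each panel), with symbols for replicate numbers, grey lines joining same-numbered samples and black marks for the mean and SD of 4 samples. In each panel the groups do not overlap, with *Orc1* and *Cdc20* higher and the other 3 genes lower in *L3mbtl2*-KD samples.

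None of the 6 genes of helicase activation passed the test in limma as first fitted, and 1 was lower at an unadjusted p under 0.05, against 18.8% of all genes. The smallest adjusted p was that of *Gins1*, a subunit of the GINS complex, with levels of 1.92, 1.84, 1.72 and 1.86 in *L3mbtl2*-KD replicates 1 to 4 and 2.17, 2.04, 2.01 and 2.18 in control replicates 1 to 4. Its groups did not overlap, at a log2 fold change of -0.26 (95% confidence interval -0.45 to -0.072, adjusted p = 0.061 from limma, 0.0106 with the replicate block, 0.0434 with the slide as a block, 0.0429 with normexp and 0.0322 with quantile normalization). The other GINS subunits differed in sign, with log2 fold changes of 0.036 for *Gins2*, -0.11 for *Gins3* and 0.19 for *Gins4*, and the sign of *Gins2* turned with quantile normalization. *Gins4* had an adjusted p of 0.0389 with the replicate block. *Cdc45* (-0.013), whose product joins GINS and MCM in the active helicase, and *Mcm10* (-0.13) had intervals that included 0, and the sign of *Cdc45* turned with normexp and with quantile normalization.

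The sliding clamp and its loader had positive log2 fold changes in 5 of 6 genes, also with normexp and with quantile normalization. Of all genes, 48.4% had a positive log2 fold change. No gene of the 6 passed the test in limma as first fitted, and 2 were higher at an unadjusted p under 0.05, against 16.9% of all genes. *Rfc2*, a small subunit of replication factor C, had levels of 2.72, 2.64, 2.64 and 2.80 in *L3mbtl2*-KD replicates 1 to 4 and 2.52, 2.35, 2.40 and 2.50 in control replicates 1 to 4. All *L3mbtl2*-KD samples were higher, at a log2 fold change of 0.26 (adjusted p = 0.0585 from limma, 0.01 with the replicate block and 0.0427 with the slide as a block). For *Rfc2* the adjusted p from limma was 0.0665 with normexp and 0.0677 with quantile normalization. *Rfc5* had a log2 fold change of 0.35 (adjusted p = 0.0955, 0.00725 with the replicate block), and *Pcna*, the clamp itself, one of 0.17 (adjusted p = 0.339, 0.0426 with the replicate block). *Rfc3* (0.14) and *Rfc4* (0.14) were also above 0, and *Rfc1* (-0.085), the large subunit, was below it.

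Catalytic subunits of the replicative polymerases and primase gave no call among 4 genes in limma as first fitted, at an adjusted or an unadjusted p under 0.05. Of all genes, 16.9% were higher and 18.8% lower at an unadjusted p under 0.05. With the replicate block *Pole* had an unadjusted p of 0.0215 (adjusted p = 0.0501). *Pold1*, of polymerase delta, had levels of 3.68, 3.63, 3.66 and 3.87 in *L3mbtl2*-KD replicates 1 to 4 and 3.82, 4.04, 3.83 and 3.90 in control replicates 1 to 4, and the groups overlapped (log2 fold change -0.19, adjusted p = 0.193 from limma). *Pola1* (0.015), *Prim1* (-0.09) and *Pole* (0.21) had intervals that included 0, and the sign of *Pola1* turned with normexp and with quantile normalization. The probes of *Pole* differed in sign, with -0.44 (adjusted p = 0.275) in the other probe.

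The 3 genes of deoxynucleotide synthesis had negative log2 fold changes, also with normexp and with quantile normalization, and *Rrm1* turned positive (0.0064) without control replicate 4. None passed the test in limma as first fitted, and 2 of the 3 were lower at an unadjusted p under 0.05, against 18.8% of all genes. Of all genes, 48.4% had a positive log2 fold change. *Tyms*, which encodes thymidylate synthase, had levels of -2.26, -2.59, -2.46 and -2.29 in *L3mbtl2*-KD replicates 1 to 4 and -1.95, -2.15, -2.15 and -2.05 in control replicates 1 to 4. All *L3mbtl2*-KD samples were lower, at a log2 fold change of -0.32 (95% confidence interval -0.55 to -0.10, adjusted p = 0.0564 from limma and 0.00837 with the replicate block), and with normexp it was -0.19 (adjusted p = 0.176) and with quantile normalization -0.23 (adjusted p = 0.173). For the subunits of ribonucleotide reductase, the log2 fold change was -0.30 for *Rrm2* (adjusted p = 0.0672, 0.0162 with the replicate block, 0.0197 with normexp and 0.0239 with quantile normalization) and -0.075 for *Rrm1* (adjusted p = 0.742). With the slide as a block the adjusted p from limma was 0.0562 for *Rrm2* and 0.0505 for *Tyms*.

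Of the S phase cyclins and their kinase, *Cdk2* fell. Its levels were -0.55, -0.70, -0.46 and -0.42 in *L3mbtl2*-KD replicates 1 to 4 and -0.21, -0.17, -0.16 and -0.086 in control replicates 1 to 4. The groups did not overlap, and *L3mbtl2*-KD replicate 2 was the lowest. The log2 fold change was -0.37 (95% confidence interval -0.57 to -0.17, adjusted p = 0.0211 from limma), or 1.3-fold lower, and was -0.43 within slide 1 (adjusted p = 0.286) and -0.31 within slide 2 (adjusted p = 0.105). Its adjusted p was 0.0583 with no filter on dim probes, 0.0586 without control replicate 3 and 0.0569 without control replicate 4. The cyclins that bind CDK2 gave 0.053 for *Ccne1* and 0.12 for *Ccna2*, neither past the threshold, and a second probe of *Ccne1* gave -0.21. *Ccne2* was not well above background on any of the 8 arrays and has no value here.

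All 6 mitotic cyclins and kinases had positive log2 fold changes on the probe used, from 0.065 for *Ccnb1* to 0.29 for *Plk1*, and all 6 stayed positive with normexp and with quantile normalization, beside 48.4% of all genes that were positive. The sign of *Aurkb* turned within slide 2, without control replicate 1 and without *L3mbtl2*-KD replicate 2, which left 5 positive. None passed the test in limma as first fitted, and 1 was higher at an unadjusted p under 0.05, against 16.9% of all genes. *Plk1*, a kinase of mitotic entry and spindle assembly, had levels of 4.97, 5.0, 5.0 and 5.22 in *L3mbtl2*-KD replicates 1 to 4 and 4.63, 4.69, 4.77 and 4.91 in control replicates 1 to 4. Both groups stood apart, and *L3mbtl2*-KD replicate 4 was the highest (adjusted p = 0.0685 from limma, 0.00737 with the replicate block, 0.0298 with the slide as a block and 0.0417 with quantile normalization). With normexp the adjusted p of *Plk1* from limma was 0.0917. *Cdk1* had 3 probes with log2 fold changes of 0.15, 0.21 and -0.35, none past the threshold. With the replicate block the first passed as higher (adjusted p = 0.0396) and the last as lower (adjusted p = 0.0303), so the direction of *Cdk1* is not settled. *Ccnb2* (0.12) and the Aurora kinase genes *Aurka* (0.13) and *Aurkb* (0.11) make up the rest. *Aurkb* had the widest interval among the probes used for the members (-0.43 to 0.65), and its log2 fold change was 0.26 within slide 1 and -0.049 within slide 2.

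*Cdc20*, the activator of the anaphase-promoting complex, rose, and the 3 spindle checkpoint genes did not pass the test. Its levels were 5.62, 5.34, 5.42 and 5.60 in *L3mbtl2*-KD replicates 1 to 4 and 5.14, 5.13, 5.07 and 5.05 in control replicates 1 to 4. All 4 *L3mbtl2*-KD samples lay above the control samples, replicates 1 and 4 the most. The log2 fold change was 0.40 (95% confidence interval 0.19 to 0.60, adjusted p = 0.0183 from limma), or 1.32-fold, and was 0.35 within slide 1 (adjusted p = 0.413) and 0.45 within slide 2 (adjusted p = 0.0738). Its adjusted p was 0.0516 with no filter on dim probes, 0.0569 without control replicate 3 and 0.0518 without *L3mbtl2*-KD replicate 4. The checkpoint genes gave -0.11 for *Bub1*, -0.018 for *Bub1b* and 0.13 for *Mad2l1*, of which a second probe gave 0.28 (adjusted p = 0.14, 0.0232 with the replicate block).

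*Mki67*, which encodes the proliferation marker Ki-67, had levels of 4.08, 4.19, 3.98 and 4.01 in *L3mbtl2*-KD replicates 1 to 4 and 4.23, 4.47, 4.23 and 4.36 in control replicates 1 to 4. The groups did not overlap, at a log2 fold change of -0.26 (adjusted p = 0.0851 from limma, 0.0166 with the replicate block and 0.0409 with normexp), and a second probe gave -0.28. *Mki67* did not pass in limma with the slide as a block (adjusted p = 0.0546) or with quantile normalization (0.0671). *Top2a*, the topoisomerase that untangles chromosomes before mitosis, had a log2 fold change of -0.01 (95% confidence interval -0.18 to 0.16), with the opposite sign under normexp.

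The members also varied between samples of a group. Their median deviation from the control mean was 0.10, -0.078, -0.067 and 0.05 in control replicates 1 to 4 and 0.048, -0.029, -0.048 and 0.12 in *L3mbtl2*-KD replicates 1 to 4. Replicates 1 and 4 lay above 0 and replicates 2 and 3 below it in both groups. Over the 46 members, deviations from the group means correlated at 0.37 to 0.86 between same-numbered samples and at -0.61 to 0.24 between the 12 other pairs, as a description across genes, which are not independent replicates.

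**Figure D3:**
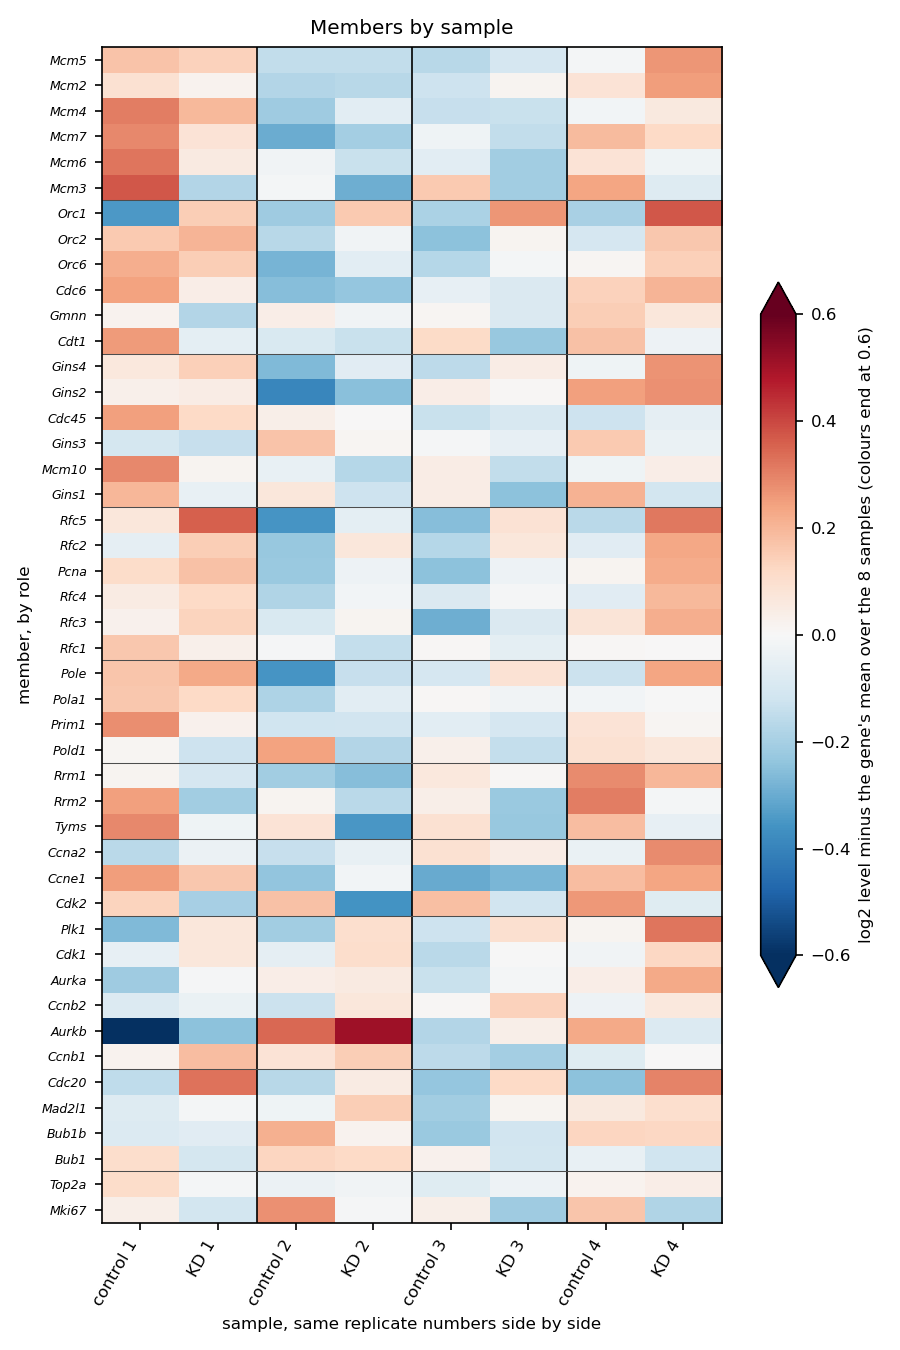
Level of each tested member (rows, by role) in each sample (columns, same numbers side by side) as the log2 difference from its mean over the 8 samples, in red above and blue below the mean. Columns of the same replicate number share much of their pattern, and 29 of the 46 members (63%), *Orc1*, *Cdc20*, *Mcm3* and *Cdk2* among them, differ in 1 direction in every pair, against 63.8% of all genes.

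Of 97 related genes of replication and the cell cycle, 96 were tested, 5 were higher (5.21%) and 7 lower (7.29%) at an adjusted p under 0.05 in limma, against 9.35% and 10.8% of all genes, and none changed more than 2-fold in any probe, at an adjusted p under 0.05. With the replicate block, 20 were higher and 20 lower (20.8% each), against 22.2% and 23.8% of all genes. The rises were those of *Mad1l1* (log2 fold change 0.73), a spindle checkpoint gene, *Mcm9* (0.59), an MCM relative with a role in recombination (0.32 with normexp and 0.74 with quantile normalization), *Donson* (0.54), a replication fork gene, *Asf1b* (0.41), a histone chaperone, and *Kif20a* (0.35), a motor of cytokinesis. Their adjusted p ranged from 0.0102 for *Asf1b* to 0.0357 for *Donson*. Among the 7 genes that passed as lower, the 5 largest falls were those of the polymerase delta subunits *Pold4* (-0.59) and *Pold2* (-0.46), of *Timeless* (-0.51), which protects the fork, of *Cdkn1b* (-0.45), which encodes the CDK inhibitor p27, and of *Mybl2* (-0.44), a transcription factor of cell cycle genes. Their adjusted p ranged from 0.00661 for *Timeless* to 0.0176 for *Pold4*. Without control replicate 3 the calls of *Mcm9* (adjusted p = 0.0608), *Kif20a* (0.0535), *Pold4* (0.0538) and *Donson* (0.0959) were lost, that of *Mcm9* also without *L3mbtl2*-KD replicate 3 (0.0502), and that of *Donson* when any sample but control replicate 1 or *L3mbtl2*-KD replicate 2 was left out. The median over the 96 genes was 0.013. At an unadjusted p under 0.05, 13 related genes were higher and 13 lower (13.5% each), against 16.9% and 18.8% of all genes.

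Some markers of other cell states changed by more than any of the replication and cell cycle genes. In these bulk samples, fewer cells of a type and less RNA per cell cannot be told apart. Of the 20 feeder fibroblast markers, 15 were tested, 8 fell (53.3%) and 1 rose (6.67%), against 10.8% and 9.35% of all genes. With only probes well above background on all 8 arrays, 12 were tested, 6 fell and 1 rose. *Dcn*, which encodes a proteoglycan of connective tissue, had no *L3mbtl2*-KD array on which it was well above background, and was at least 12.3-fold lower there. *Dcn* passed the filter through the control arrays only, so no p is given for it. Its fitted log2 fold change was -4.26, and -1.90 with normexp, a smaller difference than the bound, which was not computed under normexp. The bound takes, for each *L3mbtl2*-KD array, the dimmest probe still well above background, or *Dcn* itself if brighter, and compares their mean with the control mean. The summed feeder level, in units of the 75th percentile of the array, was 6.99, 14.2, 12.5 and 15.9 in control replicates 1 to 4 and 6.19, 6.13, 6.73 and 6.76 in *L3mbtl2*-KD replicates 1 to 4. Control replicate 1 lay near the *L3mbtl2*-KD samples, and without it 2 members were higher and 1 lower, against 9.24% and 10.6% of all genes, and 11 feeder markers were lower. *Tagln*, whose probe was the brightest of the list, did not pass (log2 fold change -0.58, adjusted p = 0.173 from limma). Without control replicate 1 the log2 fold change of *Tagln* was -0.88, and its smallest adjusted p over the leave-one-out fits in limma was 0.00227. Within slide 2 *Tagln* passed as lower (-0.77, adjusted p = 0.028). *Col5a2*, *Lum*, *Postn* and *Prrx1* were not well above background on any array, nor was *Lox* on any control array. Mitomycin C stops feeder cells from dividing, and a sort for Venus, named for the *L3mbtl2*-KD cells, would remove feeder cells, which carry no reporter. The part of feeder RNA in the values of the members was not tested.

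All 17 pluripotent ESC markers were well above background. *Dppa4* rose (log2 fold change 0.31, adjusted p = 0.0295 from limma, 0.061 with normexp), and *Klf4* fell (-0.70, adjusted p = 0.0274). No other gene of the 17 was called, so 5.88% were called in each direction, against 9.35% higher and 10.8% lower of all genes. The call of *Dppa4* was lost when any 1 control replicate was left out (adjusted p of 0.0545, 0.0624, 0.0571 and 0.0744 for 1 to 4) and without *L3mbtl2*-KD replicates 3 and 4 (0.0858 and 0.0777). That of *Klf4* was lost without control replicate 3 (0.0692) and without *L3mbtl2*-KD replicates 3 and 4 (0.068 and 0.0709). Of the 17, 13 were negative, and the median was -0.23. With the replicate block 2 were higher and 7 lower, against 22.2% and 23.8% of all genes. At an unadjusted p under 0.05 without the block 1 was higher and 6 lower, against 16.9% and 18.8% of all genes. The brightest probe was that of *Dppa5a* (0.17, adjusted p = 0.299, 0.0316 with the replicate block). The largest difference was that of *Nanog* (-1.32, adjusted p = 0.0962 from limma, and -0.70 with normexp), whose groups overlapped. The summed level was 395, 403, 382 and 368 in control replicates 1 to 4 and 366, 397, 353 and 372 in *L3mbtl2*-KD replicates 1 to 4.

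Of 13 primitive endoderm markers tested, 10 fell (76.9%, against 10.8% of all genes), the most *Cubn* (-3.20, adjusted p = 0.000542 from limma), an endocytic receptor. With the replicate block 12 were lower, against 23.8% of all genes. With only probes well above background on all 8 arrays, 10 were tested and 7 fell. *Sparc*, 1 of the 10 that fell in limma as first fitted, had the brightest probe (-0.40, adjusted p = 0.049). Its groups overlapped, and its call was lost when any sample but *L3mbtl2*-KD replicate 2 was left out, with adjusted p of 0.0518, 0.114, 0.0924 and 0.107 without control replicates 1 to 4 and of 0.0923, 0.118 and 0.117 without *L3mbtl2*-KD replicates 1, 3 and 4. The summed level was 110, 125, 111 and 126 in control replicates 1 to 4 and 78, 95.6, 75 and 68 in *L3mbtl2*-KD replicates 1 to 4.

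Of 12 two-cell-like markers, 10 were tested (*Zscan4d* and *Usp17le* had no named probe) and 9 rose, the most *Usp17la* (2.53, adjusted p = 0.00209 from limma), a deubiquitinase gene, and *Zscan4f* (2.05) had the brightest probe. These 9 were 90% of the markers tested, against 9.35% of all genes higher. With only probes well above background on all 8 arrays, 9 were tested and 8 rose. The summed level was 25.6, 30.3, 17 and 18.1 in control replicates 1 to 4 and 93.8, 92.1, 51.1 and 51.8 in *L3mbtl2*-KD replicates 1 to 4. Probes of the Zscan4 and Usp17 families may bind RNA of more than 1 gene of the family.

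Among the late PGC markers, *Ddx4* (2.83), *Dazl* (1.61) and *Stra8* (1.34) rose and *Sycp3* (-0.11, adjusted p = 0.629 from limma) did not pass. *Ddx4* is the gene of the reporter used in the sort. The brightest probe was that of *Stra8*, and the summed level was 47.1, 32.5, 26.9 and 33.3 in control replicates 1 to 4 and 110, 93.3, 78.3 and 99.7 in *L3mbtl2*-KD replicates 1 to 4. The part of the primitive endoderm, two-cell-like and germ cell states in the values of the members was not tested.

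**Figure D4:**
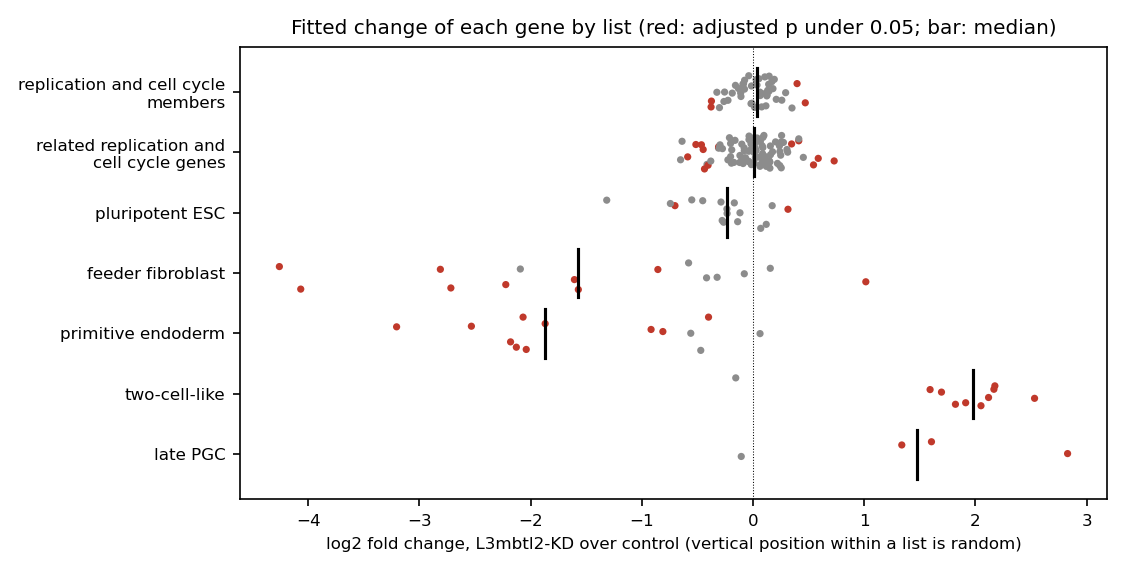
Log2 fold change of each tested gene (x axis, points) by list (rows), with genes at an adjusted p under 0.05 in red and the median of each list as a black bar. The replication and cell cycle members lie between -0.38 and 0.47, while each marker list holds at least 1 gene beyond 2-fold, in the pluripotent ESC list *Nanog*, which did not pass the test.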

How the data were processed

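The authors deposited, for each of 8 one-colour Agilent arrays, spot intensity values from Feature Extraction 10.7.3.1, background-subtracted by the scanner software and not normalized between arrays. They also deposited a log2 table made with a 75th percentile shift in GeneSpring. Set against the scanner values with each probe's median over the arrays taken off, its columns correlated at 0.999 or more across probes, so scale, centring and direction are known. Its column medians were -0.022, 0.022, 0.051 and -0.02 in control replicates 1 to 4 and -0.04, 0.015, -0.059 and 0.08 in *L3mbtl2*-KD replicates 1 to 4. No 2 arrays held identical values. The members and lists were chosen with earlier results of these data known.

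Each level is the log2 of the deposited processed intensity, less the array's own 75th percentile. Control spots and outlier-flagged spots were left out, and spots of a probe were averaged. No spot was saturated. Of 39429 probes, 26055 were matched through RefSeq accessions (GRCm38.p6) to 19751 genes. Tested were 23525 probes, those well above background on all arrays of either group, of which 85 lacked a value on some array. The probe with the highest mean level stands for a gene, and changes of more than 2-fold were counted in any probe. The comparison used limma 3.58.1 (lmFit, eBayes) under R 4.3.3 and the Benjamini-Hochberg method across the tested probes. The number of arrays limits the precision.

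The labels give both groups replicate numbers 1 to 4. Deviations from the group means correlated at 0.38 to 0.58 between same-numbered samples and at -0.44 to 0.25 between others. Equal numbers were therefore taken as pairs in 1 alternative fit, a pairing read from the values and not from the labels. Replicates 1 and 2 lay on slide 1 and replicates 3 and 4 on slide 2. Controls took positions 1 and 3 of each slide and *L3mbtl2*-KD samples positions 2 and 4, so position and group cannot be told apart. Same-numbered samples lay at neighbouring positions, so a pairing of the samples and a shared place on the slide cannot be told apart either.

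Members named with the value in every sample are those changed more than 2-fold, the 10 largest changes at an adjusted p under 0.05 and, for a role with none, the member with the smallest adjusted p. Related genes named are, among those with an adjusted p under 0.05, any changed more than 2-fold and the 5 largest changes in each direction. *Klf4* and *Dppa4* were named after their values were seen. Alternatives were normexp background correction (offset 50, on median spot intensities in place of mean ones, as planned for files without means), quantile normalization, the log2 table of the authors, no filter on dim probes, a filter on all 8 arrays, slide or replicate number as a block, each slide alone, the one-way test named in figure legends, a variance trend with intensity, a threshold of 1.5-fold, any probe of a gene and leaving out each sample.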

Additional observations from a re-analysis of the deposited data

Results flagged for a closer look

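In 7 of 138 groups of 4 samples examined, 1 sample lay far from the other samples, where chance alone gives about 6.9. Each ratio is the gap to the nearest sample over the range of the group. Among the members these were *Orc1* in control replicate 1 (level -0.55, nearest -0.42, ratio 0.845), *Rfc1* in control replicate 1 (3.27, nearest 3.11, ratio 0.933), *Plk1* in *L3mbtl2*-KD replicate 4 (5.22, nearest 5.0, ratio 0.883) and *Bub1* in *L3mbtl2*-KD replicate 2 (2.73, nearest 2.50, ratio 0.933). Among the other named genes they were *Pold2* in *L3mbtl2*-KD replicate 1 (1.05, nearest 1.34, ratio 0.861), *Tagln* in control replicate 1 (1.73, nearest 2.85, ratio 0.86) and *Nanog* in control replicate 2 (-1.38, nearest -2.73, ratio 0.894). Without control replicate 1, the log2 fold change of *Orc1* was 0.43 (adjusted p = 0.0174, limma), and it was 0.43 to 0.50 over all leave-one-out fits.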

How the results depend on the processing

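No member and no related gene passed 2-fold at an adjusted p under 0.05 in any alternative that was run, and at 1.5-fold the counts of members in limma were also 0. The log2 fold change of *L3mbtl2* stayed negative in each alternative, from -1.48 to -1.27 when 1 sample was left out, and missed the threshold in limma within slide 1 (-1.40, adjusted p = 0.0982). The median of the members ranged from -0.011 to 0.069 without 1 sample.

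The counts of members called depended on the processing. Members higher and lower, with the shares of all genes in parentheses, were 2 and 5 with normexp background correction (9.84% and 9.44%), 3 and 4 with quantile normalization (10.4% and 9.42%), 1 and 0 with no filter on dim probes (3.75% and 4.83%), 4 and 3 with the slide as a block (12.9% and 14%), 8 and 7 with the replicate block (22.2% and 23.8%), 0 and 0 within slide 1 (0% and 0%), 1 and 0 within slide 2 (4.94% and 6.14%), 4 and 5 with an intensity trend (10.5% and 11.5%), 5 and 6 with the legends' one-way test unadjusted (15.4% and 17.3%), and 2 and 1 after Benjamini-Hochberg adjustment of it (5.86% and 7.12%). The 5 lower members under normexp are 10.9% of members, above the share of all genes. The replicate block lost none of the 4 calls. At an unadjusted p under 0.05 limma gave 5 and 6 with no filter (11.4% and 13.6% of all genes), 1 and 1 within slide 1 (6.58% and 8.72%, and 3 and 7 related genes) and 4 and 3 within slide 2 (16.3% and 17.8%). Leaving out 1 sample gave 1 to 2 members higher (5.26% to 9.24% of all genes) and 0 to 2 lower (6.64% to 10.6%), with 0 lower in limma without control replicate 3 (6.64% of all genes) and without control replicate 4 (8%), and 6 each at an unadjusted p under 0.05 (16% and 17.3% of all genes). Related genes higher were 3 with no filter, 10 with the slide as a block and 8 with an intensity trend; higher and lower were 20 and 20 with the replicate block, 0 and 0 within slide 1, 1 and 1 within slide 2, and 12 and 13 with the one-way test unadjusted. Without 1 sample they were 2 to 6 and 4 to 7. With no filter more probes were tested, within a slide fewer samples, and the one-way test unadjusted has no correction; for the other alternatives the cause was not tested. In the 20 alternatives no called member turned sign, and 13 members that were not called did in at least 1 alternative. Signal over background left *Ccne2* without a value.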
